A study of Mus musculus with 2 samples.

Results

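The aminoacyl-tRNA synthetases were followed here as a family of 36 genes, out of 23418 genes in the table. Members were taken by gene symbol. The 16 whose symbol ends in 2 encode mitochondrial enzymes, and the other 20 encode enzymes that work in the cytosol or in both compartments. The study profiled C57BL/6 mouse embryos at the 4 to 8-cell stage after injection of siRNA. One pool received siDnmt1, aimed at the transcript of Dnmt1, which copies DNA methylation onto new strands at replication, and its control received scrambled siRNA. Each group was 1 pool of 20 embryos and 1 library (siDnmt1 and scrambled below), so no comparison has a replicate check and none was tested. Both groups carried injected siRNA. An uninjected group was not analysed here.

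Each synthetase joins its amino acid to the matching transfer RNAs, using ATP, and so sets which amino acid a codon is read as. Cytosolic and mitochondrial translation use separate enzymes for most amino acids, all encoded in the nucleus. The glycine and lysine enzymes, Gars and Kars, serve both compartments from a single gene. Several cytosolic enzymes sit with 3 non-enzymatic scaffold proteins in the multi-synthetase complex. Cells short of amino acids raise many cytosolic synthetase genes through the transcription factor ATF4. In the cleavage embryo, protein synthesis draws on messages from the oocyte and on those newly made by the embryonic genome, and the counts do not separate these sources.

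The libraries held 12236615 (siDnmt1) and 11675483 (scrambled) counts, and Rn45s, the ribosomal RNA precursor, took 37.3% and 29.9% of them. Dnmt1 itself had 687 and 847 counts, 1.23-fold lower in siDnmt1 (95% counting interval 1.11 to 1.37). Its log2 ratio of -0.30 lay inside the middle 50% of ratios of all genes compared, -0.67 to 0.57, so the targeted transcript separates the labels by a small difference only. Of the 10 embryo and oocyte markers examined, 8 and 10 had counts, with sums of 3270 and 3997, led by Pou5f1 and Zfp42. Of the 10 markers of cumulus and granulosa cells, 2 had a count in siDnmt1 and 0 in scrambled (8 and 0 counts in all). These were Star (6 and 0) and Cyp11a1 (2 and 0), and the other 8, among them Has2, Ptx3, Amh and Foxl2, were at 0 in both. The 6 sperm markers were at 0. Of the 6 blood cell markers, Ptprc had 16 and 6 counts, Alas2 had 0 and 2, and the globins were at 0.

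The promoters of the family were searched for a known element of amino acid response genes. The letters TGATGNAA (on the other strand TTNCATCA) are the core of the element bound by ATF4 with C/EBP factors. RefSeq promoters (GRCm38.p6, 250 bases before to 50 after the start) were matched for 13 of the 20 cytosolic and 14 of the 16 mitochondrial genes. Not matched were Cars, Hars, Lars, Nars, Rars, Vars, Wars, Hars2 and Pars2. On either strand, 5 of the 13 cytosolic promoters held the letters and 0 of the 14 mitochondrial promoters did. The letters stood in 3.97% of all 32851 promoters of that table and in 2.61% of the 5552 compared genes matched there. Of 24 amino acid response genes matched, 6 held them, among them Asns and Trib3. The 5 synthetase genes were Aars, Gars, Iars, Tars and Yars. The 4 of these with the highest counts are printed to show the letters in place, in capitals. For Tars (chr15:11399659-11399908, minus strand), Aars (chr8:111033592-111033841, plus strand) and Gars (chr6:55037751-55038000, plus strand), the 250 bases before the start are given, 5′ to 3′. For Iars the site lay just after the start, and 30 bases around it are given (chr13:49682126-49682155, plus strand).
Tars: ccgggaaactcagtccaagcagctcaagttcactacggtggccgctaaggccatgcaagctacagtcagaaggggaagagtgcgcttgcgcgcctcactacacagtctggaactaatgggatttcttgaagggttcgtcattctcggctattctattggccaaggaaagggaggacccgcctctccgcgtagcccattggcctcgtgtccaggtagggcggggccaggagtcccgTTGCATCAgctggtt
Aars: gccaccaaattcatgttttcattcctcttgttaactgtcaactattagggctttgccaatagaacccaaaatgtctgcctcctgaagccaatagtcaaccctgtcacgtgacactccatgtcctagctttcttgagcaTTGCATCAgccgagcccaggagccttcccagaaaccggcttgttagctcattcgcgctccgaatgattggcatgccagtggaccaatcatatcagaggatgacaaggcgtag
Gars: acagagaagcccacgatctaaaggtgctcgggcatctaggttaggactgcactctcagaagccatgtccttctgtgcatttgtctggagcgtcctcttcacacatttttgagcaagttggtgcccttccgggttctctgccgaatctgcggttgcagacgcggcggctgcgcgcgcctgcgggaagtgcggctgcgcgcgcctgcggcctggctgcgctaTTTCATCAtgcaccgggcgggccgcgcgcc
Iars: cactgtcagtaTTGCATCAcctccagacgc
All 4 printed sites read in the TTNCATCA direction. They began 15 bases before the start in Tars, 112 in Aars and 30 in Gars, and at base 8 after it in Iars. Aars held another at base 10 after the start. In Yars the letters lay in the other direction, at base 4 after the start. A match describes these letters only and does not show that a factor bound there.

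Together the 36 genes held 24095 counts in siDnmt1 and 21689 in scrambled, which is 0.314% and 0.265% of the counts outside Rn45s. The cytosolic genes supplied 22447 and 20363 of these, the mitochondrial genes 1648 and 1326. In each library 4 genes gave more than 50% of the family's counts (51.2% in siDnmt1, 54.3% in scrambled). Tars, Aars and Kars were among them in both, joined by Iars in siDnmt1 and by Hars in scrambled. The share of the family in all counts, Rn45s included, was 0.197% and 0.186%. In pooled embryos, fewer cells that express a gene and less RNA per cell cannot be told apart.

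Levels were compared between genes per length, as counts per kilobase of the longest annotated transcript, divided by the library's counts outside Rn45s in units of 1000000. On this scale the cytosolic genes ranged from 2.36 (Farsa) to 131.7 (Tars), with a median of 27.6, as means of both libraries. The mitochondrial genes ranged from 0.170 (Nars2) to 16.8 (Cars2), with a median of 2.04. The highest levels were those of Tars, the threonine enzyme (137 in siDnmt1, 127 in scrambled), Kars (129 and 125) and Hars, the histidine enzyme (87.1 and 143). These neighbours are not separated, since Hars stood above Tars and Kars in scrambled and below them in siDnmt1. The lowest levels among the cytosolic genes belonged to Farsa, Cars, Mars and Vars. The order depends on which transcript sets the length. With the APPRIS principal transcript, Kars (153.2) stood above Tars (134.5), Farsa moved to 4.32 and left Cars (2.75) as the lowest, and Cars2 moved to 27.7. Levels of Wars (24.8), Yars2 (5.39), Tars2 (1.90), Ears2 (0.424) and Fars2 (0.328) also came out over 1.5 times higher on that length. Mars2 is placed low (0.450 and 0.443) on a transcript annotated at 11294 nt, and a shorter transcript in embryos would raise its level.

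**Figure D1:**
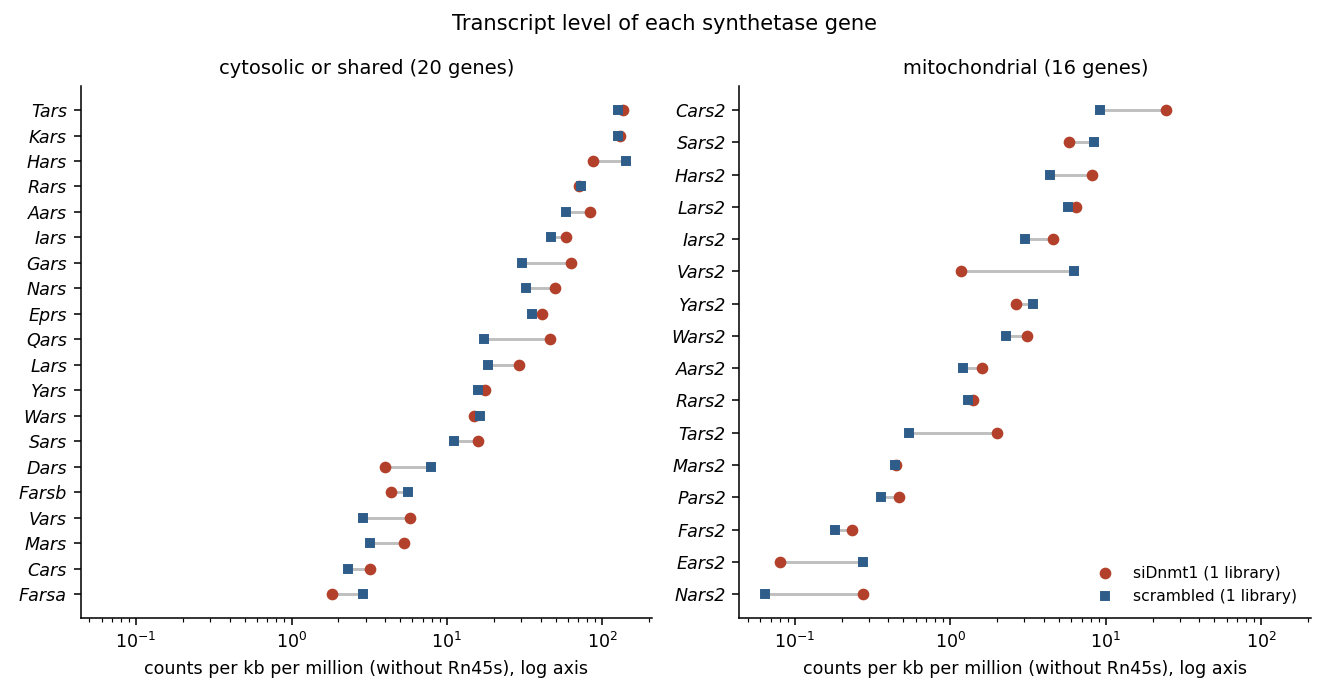
Level of each synthetase gene per length and library size, as counts per kilobase over the library's counts outside Rn45s in units of 1000000 (log axis), with 1 point per library (circles siDnmt1, squares scrambled) and a grey line joining them. Cytosolic genes reach 131.7 (Tars) and mitochondrial genes 16.8 (Cars2), as means of both points. The longest lines are those of Qars, Vars2, Cars2, Tars2 and the scarcely counted Nars2 and Ears2.

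Ratios were taken where both libraries averaged 20 counts or more, which kept 32 of the 36 members and 7315 of all genes. The log2 ratio is log2((siDnmt1 + 5)/(scrambled + 5)), and it understates the change of low genes. Folds are plain ratios of counts. All 20 cytosolic and 12 mitochondrial genes passed the minimum. The 4 that did not were Ears2 (3 counts in siDnmt1, 11 in scrambled), Fars2 (6 and 5), Nars2 (8 and 2) and Pars2 (11 and 9). Their counting intervals all included equality, so no difference was detectable at this depth.

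Among the 32 compared members, 20 had the higher count in siDnmt1, 11 in scrambled, and Rars2 had 20 in each. The share on the high side was 62.5%, against 48.7% of all genes compared. At least 2-fold higher on the log2 scale were 3 members (Qars, Cars2, Tars2), or 9.38%, against 12.5% of all genes compared. At least 2-fold lower were 2 (Dars, Vars2), or 6.25%, against 16.7% of all genes. The other 27 lay within 2-fold. The median log2 ratio was 0.17 for the cytosolic and 0.18 for the mitochondrial genes, and -0.02 for all genes. The middle 50% of members spanned 0.69 on the log2 scale and that of all genes 1.24. Members and all genes were not matched for count level (median 749 counts for the 20 cytosolic, 53.8 for all 16 mitochondrial genes). The narrower span and lower 2-fold shares can therefore not be read as a trait of the family. The 95% counting interval lay above equality for 14 members (43.8%; 35.4% of all genes) and below it for 8 (25%; 37.0% of all genes). An interval clear of equality was thus common in these libraries, and it covers counting error only.

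**Figure D2:**
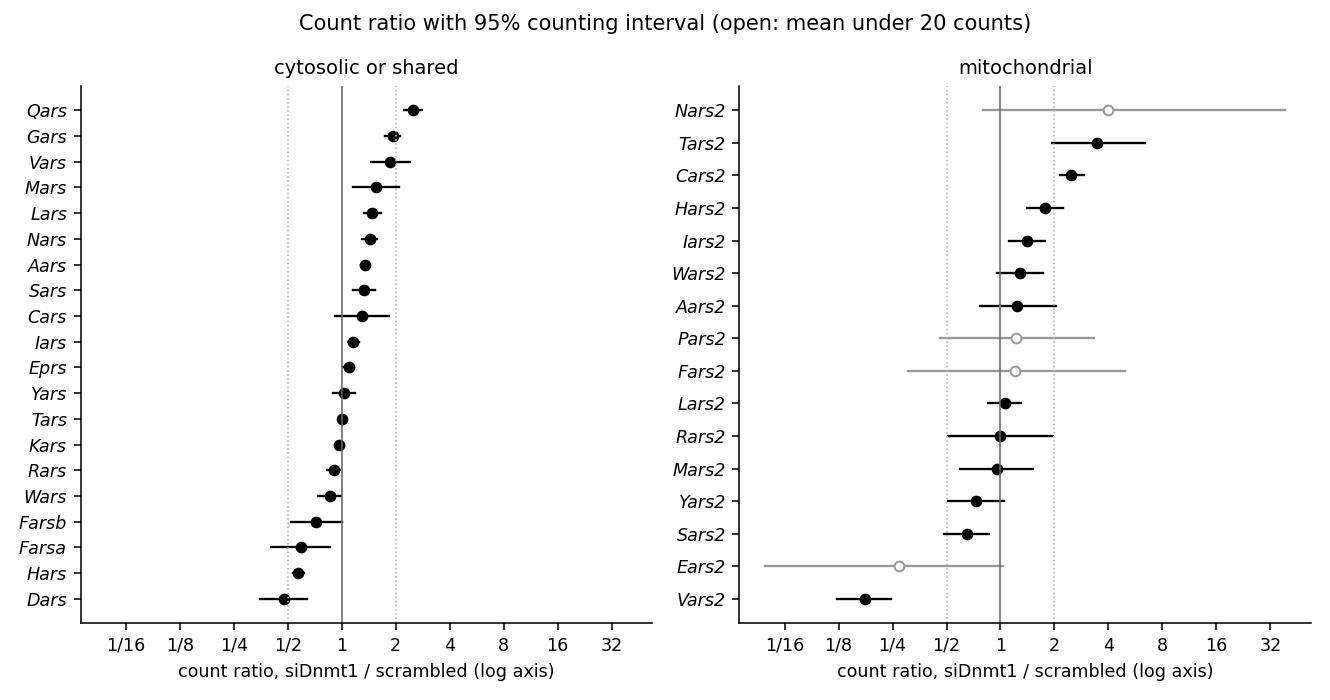
Plain count ratio of each synthetase gene, siDnmt1 over scrambled (log axis), with its 95% counting interval. Open grey points have a mean under 20 counts. Dotted lines mark 2-fold. Of the filled points, Qars, Cars2 and Tars2 stand beyond 2-fold on the high side, and Dars and Vars2 on the low side. Vars2, at 40 against 228 counts, stands farthest out on the low side. The open points of Nars2 (high side) and Ears2 (low side) also lie beyond 2-fold.

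Among the cytosolic genes, Qars, which charges glutamine, differed most on the high side. It had 1082 counts in siDnmt1 and 432 in scrambled, 2.50-fold higher (2.24 to 2.81). Gars had 1145 and 596, 1.92-fold higher (1.74 to 2.12). Vars, the valine enzyme, had 183 and 98, 1.87-fold higher (1.45 to 2.41). Only Qars of these passed 2-fold. Next came Mars, which charges both initiator and elongator tRNAs with methionine (124 and 80), Lars for leucine (886 and 597), and Nars for asparagine (1036 and 724), at 1.55-fold, 1.48-fold and 1.43-fold. Aars, which also clears tRNA wrongly loaded with serine or glycine, had 3672 and 2733 counts, 1.34-fold higher (1.28 to 1.41). Sars, which also supplies the serine for selenocysteine, had 433 and 325 counts.

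On the low side, Dars, for aspartate, had 67 counts in siDnmt1 and 141 in scrambled, 2.10-fold lower (1.56 to 2.86), at a log2 ratio of -1.02. It sat at the 2-fold threshold, and its log2 ratio was -0.80 once the trend with transcript length was removed. Hars had 1329 and 2322 counts, 1.75-fold lower (1.63 to 1.87), and its log2 ratio went from -0.80 to -0.51 with the length trend removed. Both subunits of the cytosolic phenylalanine enzyme had the lower count in siDnmt1. The alpha subunit Farsa had 47 and 79 counts, 1.68-fold lower (1.16 to 2.47), and the beta subunit Farsb 68 and 94, 1.38-fold lower (1.001 to 1.92). With the length trend removed, the log2 ratio of Farsa went from -0.69 to -0.66 and that of Farsb from -0.44 to -0.17. Wars, the tryptophan enzyme, had 332 and 387.

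The other cytosolic genes had log2 ratios between -0.15 and 0.35. Tars had 4286 counts in siDnmt1 and 4249 in scrambled, Kars 2396 and 2479, Yars for tyrosine 392 and 380, and Eprs, whose single chain charges both glutamate and proline, 1775 and 1625. Iars for isoleucine had 1979 and 1702, Rars for arginine 1136 and 1259, and Cars for cysteine 79 and 61. The side on which Tars, Yars, Kars, Eprs or Rars fell turned under at least 1 other scaling or with the length trend removed. Without Rn45s in the totals, or with the length trend removed, 2 cytosolic genes were at least 2-fold higher (Qars and Gars) and 0 at least 2-fold lower.

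The enzymes belong to 2 structural classes with unrelated catalytic folds. Of the 9 cytosolic genes of class I (Eprs, which holds both folds, left aside), 7 had the higher count in siDnmt1, with a median log2 ratio of 0.35. Of the 10 class II genes, 5 did, with a median of -0.02. All genes compared had the higher count in siDnmt1 in 48.7% of cases. The 5 genes whose promoters held TGATGNAA all had the higher count in siDnmt1, with a median of 0.22, or 0.11 with the length trend removed. The interval included equality for Tars and Yars, and both turned when totals were made equal. Of the 8 matched cytosolic genes without the letters, 4 had the higher count, with a median of 0.04. The grouping by letters was made after the promoters were read, and the differences between these groups were not tested.

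Among the mitochondrial genes, Vars2 and its siDnmt1 count of 40 stood apart. Against 228 in scrambled it was 5.70-fold lower (4.06 to 8.19), and its log2 ratio of -2.37 was matched or passed on the low side by 2.75% of all genes compared. Removing the length trend left -2.48. Cars2 had 587 counts in siDnmt1 and 236 in scrambled, 2.49-fold higher (2.13 to 2.91). Tars2 had 55 and 16, 3.44-fold higher (1.94 to 6.43), a ratio that rests on few counts. Hars2 had 210 and 119, 1.76-fold higher (1.40 to 2.23), and Iars2 191 and 136, 1.40-fold higher (1.12 to 1.76). Sars2 had 83 and 128, 1.54-fold lower (1.16 to 2.06), and its log2 ratio went from -0.60 to -0.25 with the length trend removed. For the remaining 6 the interval included equality. Lars2 had 192 and 182 counts, Wars2 105 and 82, Yars2 57 and 78, Aars2 41 and 33, Mars2 39 and 41, and Rars2 20 and 20.

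For 13 amino acids a cytosolic and a mitochondrial gene share a symbol apart from the ending 2, and these were paired. Eprs, Farsa and Farsb were not paired with Ears2, Pars2 and Fars2. Per length, the cytosolic gene stood above its mitochondrial counterpart in both libraries for 11 of them. The level ratio, from the mean of both libraries, had a median of 9.47 over the 13 and was highest for asparagine. Cysteine was the exception in both libraries. Cars2 had a level of 24.4 in siDnmt1 and 9.19 in scrambled, and Cars 3.20 and 2.31. Valine changed order, since Vars stood at 5.77 against 1.18 for Vars2 in siDnmt1 and at 2.89 against 6.29 in scrambled. The count of 11 was the same with the lengths of principal transcripts, although single levels moved.

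Of the 12 pairs in which both genes were compared, 6 had the higher log2 ratio for the cytosolic gene. For valine the log2 ratios were 0.87 (Vars) and -2.37 (Vars2), a gap of 3.24. Histidine went the other way, with -0.80 for Hars and 0.79 for Hars2, and so did threonine, with 0.01 for Tars and 1.51 for Tars2. Serine split in the same direction as valine, at 0.41 for Sars and -0.60 for Sars2 (-0.25 with the length trend removed). Cars and Cars2 (0.35 and 1.3), Iars and Iars2 (0.22 and 0.48) and Aars and Aars2 (0.43 and 0.28) lay on the same side. The pairs thus fell on either side of equal ratios, and the difference of the compartment medians was -0.0034. With the length trend removed that difference was -0.16.

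**Figure D3:**
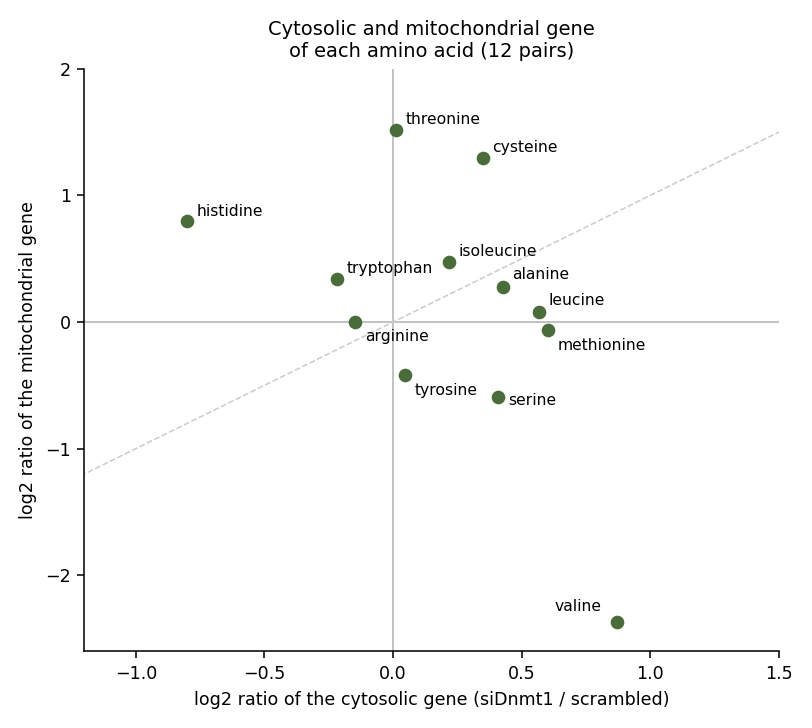
Log2 ratio (siDnmt1 over scrambled) of the cytosolic gene on the x axis and of the mitochondrial gene on the y axis for the 12 amino acids with both genes compared. The dashed line marks equal ratios. Valine lies far below the line (0.87 and -2.37), and histidine (-0.80 and 0.79) and threonine (0.01 and 1.51) lie above it.

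The reading of single genes is limited by shared sequence, because the libraries were built from double-stranded cDNA with a kit for DNA, which does not mark strand. Hars and Hars2 lie head to head and share 195 exon bases on opposite strands (GENCODE M21), so reads there cannot be assigned between them. Iars2 shares 2034 exon bases with Rab3gap2 on the other strand, which had 59 and 63 counts. Aars shares 1326 with Exosc6 on the same strand, which had 4 and 9. Cars2 shares 422 with Carkd on the other strand, which had 14 counts in siDnmt1 and 50 in scrambled. Farsb, Mars, Yars, Ears2 and Fars2 share 30 to 501 exon bases with a neighbour on the other strand. Vars2 shares 465 with the antisense gene Gm20483, which is not a row of the table. Cars shares 211 exon bases with the pseudogene Gm15580 and Nars2 284 with C230038L03Rik, both on the other strand and neither a row. Iars has a copy, Gm4849, that is 96.0% identical over 1656 bases. Tars matches Gatad2b, which had 2783 counts in siDnmt1 and 3132 in scrambled, at 90% identity over 200 bases. Counts of these genes are uncertain to that extent.

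Transcript length moved with the ratios. Over the 7267 genes compared that had a length, Spearman's rho between length and log2 ratio was 0.24, and over the 32 synthetases it was 0.30. All points share the same 2 libraries, and genes are not independent. The part of length in the differences was not tested. After the trend was removed, Qars (1.37), Gars (1.1), Cars2 (1.35), Tars2 (1.51) and Vars2 (-2.48) were at least 2-fold apart, and the medians were 0.11 for cytosolic and 0.27 for mitochondrial genes.

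**Figure D4:**
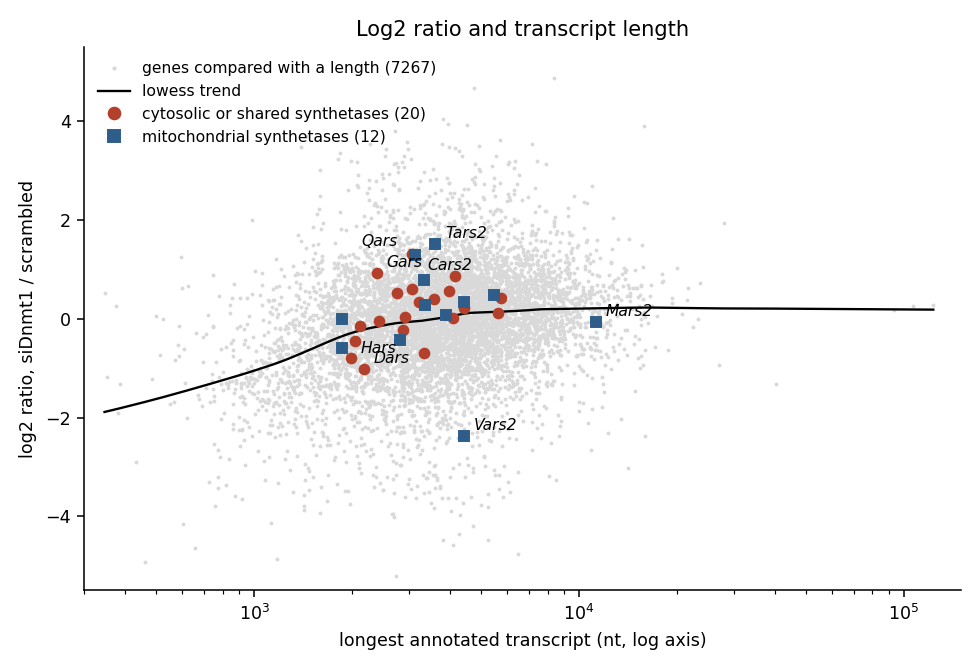
Log2 ratio (siDnmt1 over scrambled) against the length of the longest annotated transcript (nt, log axis) for the 7267 genes with a length (grey), the lowess trend (line), the 20 cytosolic (circles) and the 12 mitochondrial synthetases (squares). Short transcripts lie low in general. Vars2 lies at -2.37 far below the trend at its length.

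The multi-synthetase complex holds 8 enzyme chains of the list, Eprs, Iars, Lars, Mars, Qars, Rars, Kars and Dars, and the scaffold proteins of Aimp1, Aimp2 and Eef1e1. Of its enzymes, 5 (62.5%) had the higher count in siDnmt1, against 48.7% of all genes, with a median log2 ratio of 0.17. On the high side 1 (Qars, 12.5%) passed 2-fold and on the low side 1 (Dars, 12.5%), against 12.5% and 16.7% of all genes. Eef1e1 had 572 counts in siDnmt1 and 2506 in scrambled, 4.38-fold lower (4.00 to 4.81). Aimp1 had 14 and 52, 3.71-fold lower (2.03 to 7.26), and Aimp2, which holds the complex together, 27 and 25. With the length trend removed, the log2 ratios were -2.00 for Eef1e1, -1.62 for Aimp1 and 0.98 for Aimp2. The enzymes' median thus lay above the all-gene median and Eef1e1 and Aimp1 below it, as did the enzymes Dars, Rars and Kars, and the difference between enzymes and scaffold was not tested.

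Other genes of tRNA charging had a median log2 ratio of 0.20 over 7 compared genes. On the log2 scale with its pseudocount, by which 2-fold is judged in every list, 1 passed 2-fold in each direction (Gatc and Aarsd1). Each was 14.3% of those compared, against 12.5% of all genes on the high side and 16.7% on the low side. Gatc, a subunit of the mitochondrial enzyme that makes glutaminyl-tRNA from glutamyl-tRNA, had 61 counts in siDnmt1 and 26 in scrambled, 2.35-fold higher (1.46 to 3.87). Xpot, the exporter of tRNA from the nucleus, had 757 and 377, 2.01-fold higher (1.77 to 2.28) as a plain ratio, and its log2 ratio of 0.996 stood just under 2-fold. Trnt1, which adds the CCA end, had 77 and 73. Aarsd1, which hydrolyses alanine tRNA loaded with serine, had 7 counts against 105, 15.0-fold lower (7.03 to 38.2), the lowest log2 ratio (-3.20) of all lists examined here.

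The translation elongation factors take charged tRNAs to the ribosome and move it along. Their median log2 ratio was 0.81 over 8 compared genes. Of these, 3 (37.5%) passed 2-fold on the high side and 1 (12.5%) on the low side, against 12.5% and 16.7% of all genes. Eef2, the cytosolic translocase, had 113825 counts in siDnmt1 and 51544 in scrambled, 2.21-fold higher (2.19 to 2.23). Gfm2, which recycles mitochondrial ribosomes, had 341 and 111, 3.07-fold higher (2.47 to 3.84). Eef1d, of the factor that reloads EF1A with GTP, had 108 and 244, 2.26-fold lower (1.79 to 2.86), and Eef1b2 of the same factor had 53 and 63.

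Genes of tRNA modification had a median of -0.30. Of their 20 compared genes 7 (35%) had the higher count in siDnmt1, against 48.7% of all genes. On the high side 2 (10%) passed 2-fold and on the low side 5 (25%), against 12.5% and 16.7% of all genes. Osgep, the catalytic subunit of the KEOPS complex, had 94 counts against 14 (6.71-fold higher, 3.81 to 12.8), and Tprkb of the same complex 35 against 11 (3.18-fold higher, 1.58 to 6.95). Adat2, of the adenosine deaminase that acts on the wobble base, had 11 against 68 (6.18-fold lower, 3.25 to 13), and Qtrtd1, of the queuine transferase, 35 against 149 (4.26-fold lower, 2.93 to 6.34). Genes of tRNA processing had a median of -0.49, or -0.23 with the length trend removed. Of their 10 compared genes 3 (30%) had the higher count in siDnmt1, against 48.7% of all genes. On the high side 1 (Tsen54, 10%) passed 2-fold and on the low side 2 (Clp1 and Rpp38, 20%), against 12.5% and 16.7% of all genes. The differences of these lists from all genes were not tested. Tsen54, of the splicing endonuclease, had 293 and 132 counts. Clp1, an RNA kinase, had 95 and 234. Rpp38, of RNase P, had 109 and 246, and its log2 ratio went from -1.14 to -0.13 once the length trend was removed.

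RNA polymerase III, which transcribes the tRNA genes, had a median of -0.14 over 18 compared genes. In each direction 1 (5.56%) passed 2-fold, against 12.5% of all genes on the high side and 16.7% on the low side. Polr3g, a subunit found mainly in pluripotent cells, had 908 counts in siDnmt1 and 395 in scrambled, 2.30-fold higher (2.04 to 2.59). Gtf3c2 had 1377 and 777. Gtf3c3, like Gtf3c2 a subunit of the factor TFIIIC, had 130 and 372, 2.86-fold lower (2.34 to 3.52), and the polymerase subunit Polr3e 216 and 418.

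Genes of the amino acid response had a median of 0.03 over 20 compared genes, 10 on each side. Of these, 1 (5%) passed 2-fold on the high side and 3 (15%) on the low side, against 12.5% and 16.7% of all genes. Atf4 had 662 counts in siDnmt1 and 839 in scrambled, 1.27-fold lower (1.14 to 1.41), at a log2 ratio of -0.34, or -0.06 with the length trend removed. Shmt2, a mitochondrial enzyme of serine and one-carbon metabolism, had 81 against 16, 5.06-fold higher (2.94 to 9.27), and Sesn2, a sensor that restrains mTORC1 when leucine is short, 1572 against 903. Psph, the last step of serine synthesis, had 18 against 134, 7.44-fold lower (4.53 to 12.9), and the lipoprotein receptor Vldlr 9 against 31. Genes of this list therefore lay on both sides.

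**Figure D5:**
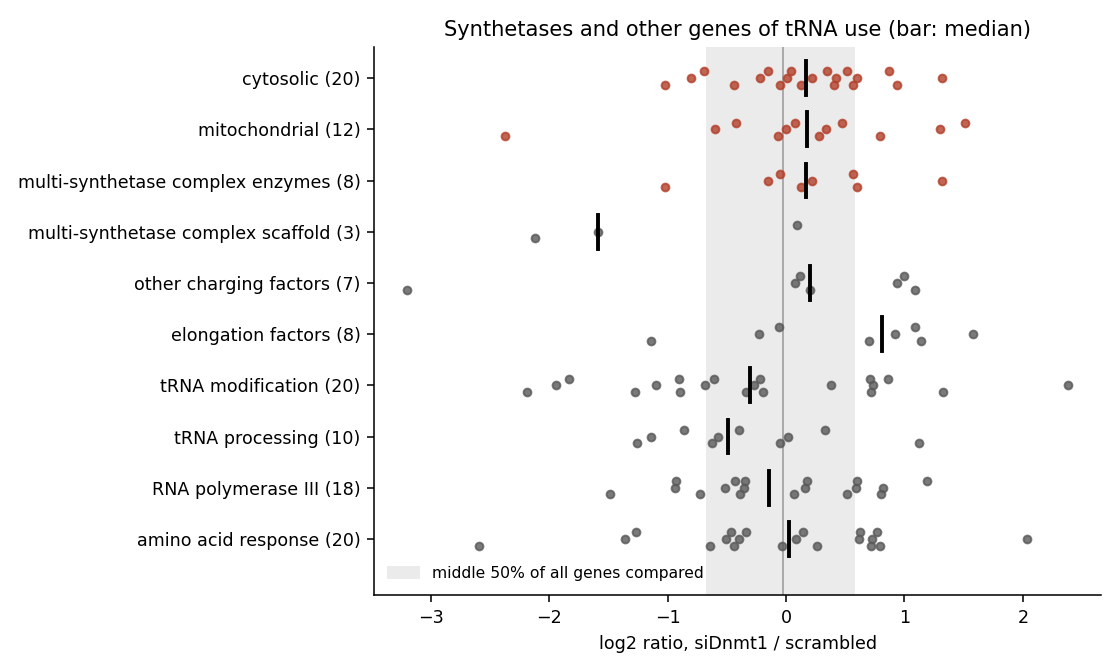
Log2 ratio (siDnmt1 over scrambled, x axis) of every compared gene in each list (points), with the list's median as a black bar and the middle 50% of all genes compared as a grey band. Synthetase lists are in red, with medians of 0.17 and 0.18 inside the band. Medians of the elongation factors (0.81) and of the complex scaffold (-1.58) lie outside it.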

How the data were processed

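RNA captured from pooled embryos was turned into adapter-tagged cDNA, amplified by 20 cycles of PCR and sequenced from both ends, per the labels' protocols. No molecular identifiers are described there, so intervals cover counting error only. The authors deposited whole-number counts per gene for 1 library a group. Trim Galore, HISAT2, HTSeq, DESeq2 and mm9 are named, with no versions, in the submitters' processing notes. The deposited file is named as DESeq2-normalized. In its columns 0 whole numbers from 1 to 59 were skipped, whereas copies scaled by 1.01 to 1.3 skipped at least 1, and no whole number from 2 to 30 was more than 1.29 times as frequent as its neighbours, against at least 1.46 in copies scaled by 0.5 to 0.98. A factor of 0.99 left the pattern as it was. The values were used as counts, unscaled or scaled by a factor close to 1.

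The quasi-likelihood test could not be fitted with 1 library a group. Intervals are Clopper-Pearson intervals of the ratio of 2 counts. Lengths are those of the longest GENCODE M21 transcript, found for 99.3% of genes compared, and the trend was a lowess curve (span 0.3). M21 lies on GRCm38, so coordinates are given only for RefSeq promoters of that build. Near-copies were sought with blastn among M21 transcripts. The 32 compared members are named with their values. Of each other list, the 2 highest and 2 lowest log2 ratios are named, or all genes where 5 or fewer were compared, with Dnmt1, Rn45s and Atf4. The single markers were named after their values were seen. Some genes that this rule would name are not reported here. Members and lists were chosen with earlier results of these data known. The ratio and trend were tested on simulated data. Alternatives were other pseudocounts, filters, scalings and thresholds and the length trend, and principal transcript lengths were added after the data were seen. Factors came from edgeR 4.0.16 (TMM) and DESeq2 1.42.0 (size factors) under R 4.3.3, intervals from scipy 1.17.1 and the trend from statsmodels 0.14.6 under Python 3.11.15.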

Additional observations from a re-analysis of the deposited data

How the results depend on the processing

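With 1 library a group there is no replicate error, and depth limits the low members most, since intervals of Tars2, Rars2 and Aars2 each span more than 2-fold. No paired analysis was possible because each group has 1 library. The medians of both compartments were taken under 10 alternatives. The recomputed DESeq2 size factors were 1 for both libraries, so that alternative only repeated the main values. Both medians stayed above 0 throughout, from 0.10 to 0.27 for the cytosolic and from 0.11 to 0.28 for the mitochondrial genes. Their difference (-0.0034) changed sign with a pseudocount of 20 (0.034), without the filter on low counts (0.0069) and with totals made equal without Rn45s (0.0032). Cytosolic genes at least 2-fold lower went from 1 to 0 with a pseudocount of 20, a median log2 ratio set to 0, totals equal without Rn45s and the length trend removed. The latter 2 settings gave 2 cytosolic genes at least 2-fold higher. With no filter, all 23418 genes were counted. Of these, 2 mitochondrial genes were at least 2-fold lower, 1682 of all genes higher and 2122 lower. With a mean of at least 100 counts, 1 mitochondrial gene was at least 2-fold higher, as were 395 of all genes, and 482 were lower. Both settings change which genes are counted, so these counts cannot be set against the 911 higher and 1221 lower of the 7315 genes compared. At 1.5-fold, 4 cytosolic genes were higher and 3 lower, 2 mitochondrial genes lower, 1808 of all genes higher and 2046 lower. At 4-fold, 0 cytosolic genes were higher or lower, 0 mitochondrial genes higher, 193 of all genes higher and 330 lower. The median of all genes (-0.025) turned to 0.023 with a mean of at least 100 counts, to 0.064 with totals equal without Rn45s and to 0.015 with the length trend removed. Of the 5 members at least 2-fold apart, none changed sign under the 8 alternatives run for single genes, and Dars alone fell below 2-fold. The DESeq2 size factors, which are among those 8, could not change any value.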
